A study of Mus musculus with 14 samples.

Results

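The muscle contractile isoform genes are 44 mouse genes that encode myosin heavy and light chains, troponins, tropomyosins, striated actins, calcium handling proteins and other parts of the sarcomere. They were chosen by name, but with earlier results of these data known. Each symbol matched 1 of the 56691 gene IDs of the count table, and all 44 were among the 21619 genes that passed the filter on low counts and were tested. By role, 6 were developmental isoforms, 11 slow or cardiac isoforms, 17 fast isoforms or genes of fast fibres, and 10 genes of all striated fibres.

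A sarcomere is the repeating contractile unit of striated muscle, in which myosin motors of the thick filament pull on actin of the thin filament when calcium binds troponin. Many of its proteins exist as isoforms from separate genes, and limb muscle of rodents replaces embryonic and neonatal isoforms by adult slow and fast ones around and after birth. Myh3 encodes the embryonic myosin heavy chain, Myh8 the neonatal (perinatal) one, Myh7 the slow one, and Myh2, Myh1 and Myh4 the fast IIa, IIx and IIb chains.

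RNA came from whole paws of wild-type (WT) mice and of Krt9-/- mice, here called Krt9 null, on postnatal days 0 (P0) and 3 (P3). On P0 there were 4 WT and 2 Krt9 null libraries, on P3 there were 5 WT and 3 Krt9 null ones, and each group held males and females. Krt9 encodes a keratin of palm and sole epidermis and is no muscle gene. No treatment is labelled, and the sources used here do not give the strain, how the allele was made or whether paws were pooled. The litter number used here is the digit after the day in each sample title. Within a day, WT replicates 2 and 3 of P3 carried 1 litter number, as did replicates 1 of P0 WT and P0 Krt9 null. Nothing says more on how far the libraries are separate, so p-values measure only the spread between these libraries.

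Library totals ran from 28947715 to 41004173 counts, and the 44 genes took between 0.348% and 2.14% of them. Krt9 stood at 2.09 to 7.61 CPM (counts scaled to equal library size) in P0 WT and 5.32 to 6.08 in P0 Krt9 null libraries, so its level did not separate the genotypes on that day. On P3 it stood at 32.9 to 83.0 CPM in WT and 7.74 to 25.2 in the libraries labelled Krt9 null, with no overlap. The column names of the table form 2 alphabetical runs of 8 and 6 libraries, here called block A and block B, which separate the log2 ratio of Col1a1 to Col1a2 (0.33 to 0.46 in block A, -0.13 to 0.08 in block B). Every group has libraries in both blocks, and no source says that they are batches. WT replicate 4 of P0, labelled female, had 0.181 CPM of Xist and 0.155 CPM of Ddx3y, far below the other libraries labelled female and male respectively. WT replicate 2 of P0 stood apart in muscle RNA: its 44 genes summed to 23897 CPM, against 9108 to 11089 CPM in the other 3 libraries of its group.

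The label was checked against markers of other cells that a paw could hold. Of 8 heart muscle markers, Nppa, Nppb, Mybpc3 and Tnni3k were under 1 CPM in every library, and the 8 summed to between 3.88 and 10.6 CPM. Smooth muscle markers summed to between 215.7 and 439.7 CPM, and edgeR called 0 of 7 in each comparison made here. Of the 7, 1 had an unadjusted p under 0.05 by edgeR, between the genotypes on P3. Results of DESeq2 and other tools were not summarised for these lists. Tpm1, Tpm2, Tpm3, Atp2a2 and Des are also made by cells other than skeletal muscle fibres, and their share from those cells was not measured.

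Of the 44 genes, 37 had an upstream sequence in the RefSeq promoter table of build GRCm38.p6. The 5 shown are those of 3 heavy chain genes of chromosome 11 and of the 2 striated actins, whose ratios between P0 and P3 are described below. Each is the 250 bases before the annotated gene start, 5′ to 3′: Myh8 at chr11:67276874-67277123 (+ strand), Myh1 at chr11:67199852-67200101 (+), Myh2 at chr11:67170777-67171026 (+), Actc1 at chr2:114052876-114053125 (- strand) and Acta1 at chr8:123894776-123895025 (-). Capitals mark E-boxes (CANNTG, the site of MyoD family factors) and CArG boxes (the site of serum response factor), both of which read the same on either strand and did not overlap each other here.
Myh8: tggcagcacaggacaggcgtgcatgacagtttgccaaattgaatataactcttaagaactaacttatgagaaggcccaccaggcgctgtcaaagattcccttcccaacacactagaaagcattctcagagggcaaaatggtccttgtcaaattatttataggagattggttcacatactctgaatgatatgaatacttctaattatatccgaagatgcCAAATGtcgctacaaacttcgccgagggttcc
Myh1: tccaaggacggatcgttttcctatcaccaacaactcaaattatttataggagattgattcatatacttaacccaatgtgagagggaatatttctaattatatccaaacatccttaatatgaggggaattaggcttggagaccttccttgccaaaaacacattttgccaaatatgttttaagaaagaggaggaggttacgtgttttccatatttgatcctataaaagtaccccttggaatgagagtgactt
Myh2: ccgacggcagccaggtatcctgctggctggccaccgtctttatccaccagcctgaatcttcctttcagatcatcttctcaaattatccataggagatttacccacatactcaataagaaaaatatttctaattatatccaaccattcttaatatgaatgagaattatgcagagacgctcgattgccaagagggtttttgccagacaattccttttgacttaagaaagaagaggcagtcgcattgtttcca
Actc1: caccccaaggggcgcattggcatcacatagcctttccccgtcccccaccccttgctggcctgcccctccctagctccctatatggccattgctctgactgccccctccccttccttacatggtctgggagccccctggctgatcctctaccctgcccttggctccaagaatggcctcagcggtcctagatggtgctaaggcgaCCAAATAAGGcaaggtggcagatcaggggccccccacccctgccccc
Acta1: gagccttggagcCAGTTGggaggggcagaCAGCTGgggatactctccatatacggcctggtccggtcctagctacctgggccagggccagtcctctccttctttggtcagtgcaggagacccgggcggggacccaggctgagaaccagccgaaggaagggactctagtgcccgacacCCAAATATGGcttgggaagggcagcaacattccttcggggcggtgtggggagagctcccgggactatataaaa
A CArG box was present once in Actc1, starting 47 bases before the start, and once in Acta1, starting 73 bases before it. An E-box was present once in Myh8 and 2 times in Acta1, and in none of the other 3 windows. Of all 32851 windows of this length, 66.2% held an E-box and 1.47% a CArG box. Of the 45 windows of the 37 members in the table, 39 held an E-box and 4 a CArG box. By gene, 32 members held an E-box and 4 a CArG box (Acta1, Actc1, Myh4 and Myl3) in any of their windows. A match is only a run of letters in this window and no measured site.

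Myosin heavy chain RNA was made up mostly of the 2 developmental isoforms on both days. Per kilobase of coding transcript, Myh8 held 52.8 ± 9.11% (SD, n = 4) of the summed heavy chain RNA in P0 WT and 59.0 ± 2.1% (n = 5) in P3 WT libraries. Myh3 held 40.3 ± 9.58% and 26.5 ± 7.11%, and it held 46.7 ± 3.29% (n = 2) in P0 Krt9 null and 21.3 ± 4.13% (n = 3) in P3 Krt9 null libraries. The order of these isoforms on P0 turned with the length used: per kilobase of all annotated exons, Myh3 held 54.4 ± 10.2% and Myh8 38.1 ± 9.08% in P0 WT libraries. Slow Myh7 held 4.53 ± 0.519% in P0 WT and 4.3 ± 0.526% in P3 WT.

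The adult fast chains held small shares that were larger on P3. Fast IIa Myh2 held 0.656 ± 0.237% of heavy chain RNA in P0 WT and 5.91 ± 2.66% in P3 WT, and 0.968 ± 0.0983% and 7.06 ± 3.33% in Krt9 null libraries. The highest P0 library (1.04%) lay below the lowest P3 library (3.03%), so the days did not overlap in either genotype. IIx Myh1 held 1.64 ± 0.54% and 4.02 ± 2.17% in WT, and IIb Myh4, the fastest chain, was lowest in every group at 0.0387 ± 0.0162% and 0.282 ± 0.293%. Per kilobase of coding transcript the mean order was Myh8, Myh3, Myh7, Myh1, Myh2, Myh4 in P0 WT and Myh8, Myh3, Myh2, Myh7, Myh1, Myh4 in P3 WT. On P3 the group means of Myh2, Myh7 and Myh1 lay within their spread of each other. Within each P3 library, however, the Myh2 share was above the Myh1 share, most narrowly in Krt9 null replicate 3 (3.23% against 3.17%).

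**Figure D1:**
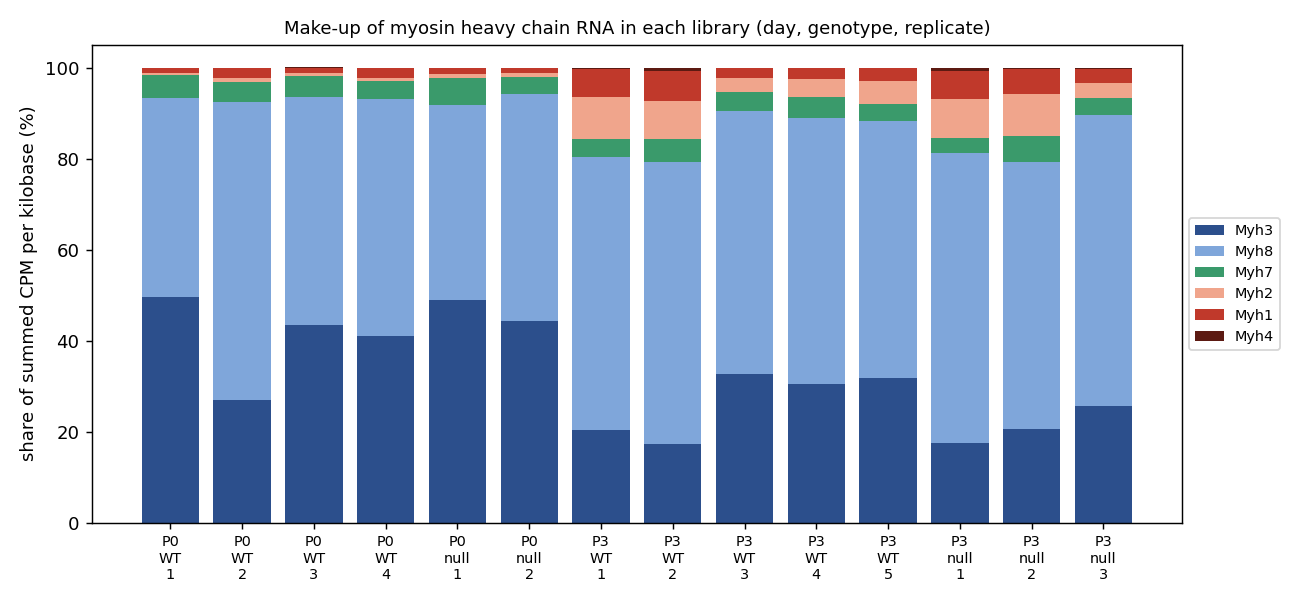
Share of each heavy chain gene (y axis, percent of the summed CPM per kilobase of coding transcript) in each of the 14 libraries (x axis). Myh8 and Myh3 fill most of every bar, and the Myh2 segment is between 3.03% and 9.32% in the P3 libraries and at most 1.04% in the P0 libraries.

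From P0 to P3 in WT paws, 21 of the 44 contractile genes fell and 23 did not pass the test. edgeR's quasi-likelihood test with Benjamini-Hochberg adjustment over all genes called the 21 lower, where 8.07% of all genes tested were called lower. It called 0 higher, where 8.49% of all genes were, although 2 (Mb and Myh2) had an unadjusted p under 0.05 in that direction. DESeq2 called those 2 higher and limma voom called Myh2. Without the filter on low counts edgeR called 33 lower and 3 higher (Mb, Myh2 and Myh4), where 1931 and 2272 of 36822 genes were. Without WT replicate 2 of P0, the library with the most muscle RNA, 14 were called lower and 2 higher with a median of -0.62. In that fit 849 of 21755 genes were called lower and 1135 higher. Without WT replicate 4 of P3, 12 members were called lower, where 1284 of 21764 genes were. The median log2 fold change of the 44 was -0.99, beside -0.01 over all genes tested, and 40 of 44 values were below 0. In CPM, 22 members had every P3 WT library below every P0 WT library (7.73% of all genes), and 0 had every one above (8.96%). CPM are shares of a library's RNA, so fewer muscle cells and less of these RNAs per cell cannot be told apart.

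Developmental isoforms had the highest share called within a role, 5 of 6, with a median log2 fold change of -1.56. Cardiac actin Actc1, the main sarcomeric actin of embryonic muscle besides Acta1, stood at 509.3, 1112, 603.5 and 634.6 CPM in P0 WT and at 59.8, 80.9, 232.6, 179.3 and 91.1 CPM in P3 WT libraries. The groups lay far apart, and the fold change was 5.16-fold lower on P3 (log2 -2.37, SE 0.43, edgeR adjusted p = 0.005). Embryonic Myh3 stood at 874.3, 1366, 902.1 and 849.2 CPM on P0 and at 177.5, 187.5, 485.5, 372 and 163.8 CPM on P3, again without overlap (log2 -1.81, SE 0.42, adjusted p = 0.0156). Cardiac troponin T Tnnt2, which developing skeletal muscle also makes, had the smallest adjusted p of the 44 (log2 -1.67, SE 0.21, adjusted p = 0.000602), with 65.3 to 91.0 CPM on P0 and 15.4 to 27.5 CPM on P3. The embryonic light chain Myl4 fell by 1.26 and myosin binding protein H, Mybph, by 1.44 on the log2 scale. Neonatal Myh8 was not called: it stood at 788.1, 3382, 1057 and 1098 CPM on P0 and at 534.6, 679.9, 874.7, 730.3 and 297.2 CPM on P3, with an adjusted p of 0.108 by edgeR and with overlap of the groups.

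Slow isoforms were called lower in 7 of 11 cases (median -1.2). The slow essential light chain Myl3 stood at 9.85, 25.6, 9.83 and 10.4 CPM on P0 and at 3.93, 2.57, 2.6, 5.38 and 3.49 CPM on P3, and it was 3.6-fold lower on P3 (log2 -1.85, SE 0.25, edgeR adjusted p = 0.000736). The slow troponins fell side by side, Tnnc1 by 1.44, Tnni1 by 1.31 and Tnnt1 by 1.24 on the log2 scale. Slow myosin binding protein Mybpc1, the calcium store protein Casq2 and the Z-disc protein Myoz2 also fell. Myh7, Myl2, Tpm3 and the slow calcium pump Atp2a2 were not called, with values from -1.39 (Myh7, SE 0.56) to -0.2 (Myl2, SE 0.47).

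Fast members were called lower in 5 of 17 cases (median -0.74), and 3 had values above 0. Muscle creatine kinase Ckm fell by 1.43, fast troponin T Tnnt3 by 1.01, muscle enolase Eno3 by 0.81, the fast regulatory light chain Mylpf by 0.74 and Tpm1 by 0.65 on the log2 scale. The fast heavy chain Myh2 stood at 6.58, 46.6, 11.9 and 16.2 CPM on P0 and at 80.6, 89.2, 45.3, 50 and 26.6 CPM on P3. All but 1 P0 library were below every P3 library, and the exception was WT replicate 2 with its high muscle RNA. Its fitted change was 1.66 (SE 0.71) with an edgeR adjusted p of 0.143, and without that replicate Myh2 and Mb were called higher. Myh4 (1.1, SE 0.91), the calcium buffer Pvalb (0.18, SE 1.14) and Myh1 (-0.2, SE 0.67) had wide errors. The other fast members that were not called lay between -1.42 (Tnnc2) and -0.48 (Casq1 and Myl1).

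Of the genes of all fibres, 4 of 10 were called lower (median -1.01). Alpha-actinin Actn2 of the Z-disc fell by 1.6, the giant spring titin Ttn by 1.36, the intermediate filament desmin Des by 1.19 and Tpm2 by 1.03 on the log2 scale. Skeletal actin Acta1 stood at 1331, 4021, 1504 and 1251 CPM on P0 and at 589.5, 815.7, 1037, 998 and 431.2 CPM on P3 without overlap, and missed the threshold with an adjusted p of 0.0583 by edgeR. Myoglobin Mb, the oxygen store of muscle, stood at 2.82, 5.94, 2.43 and 3.34 CPM on P0 and at 15.4, 7.32, 3.93, 4.45 and 7.51 CPM on P3. Nebulin Neb and the triad genes Ryr1, Cacna1s and Trdn, which couple the membrane signal to calcium release, were not called (-0.98 to -0.13). Mb was the 1 member of this role with a value above 0 (log2 1.09, SE 0.39, edgeR adjusted p = 0.0703). Besides Tnnc2, exons of Myh1, Myh2, Myh7, Myl2, Myl3, Myl4, Ckm, Atp2a1, Atp2a2, Ryr1, Casq1, Mybpc1, Mybpc2, Mybph, Des, Ttn, Neb, Mb and Cacna1s overlap a gene on the other strand and their counts are uncertain if strand was not used.

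**Figure D2:**
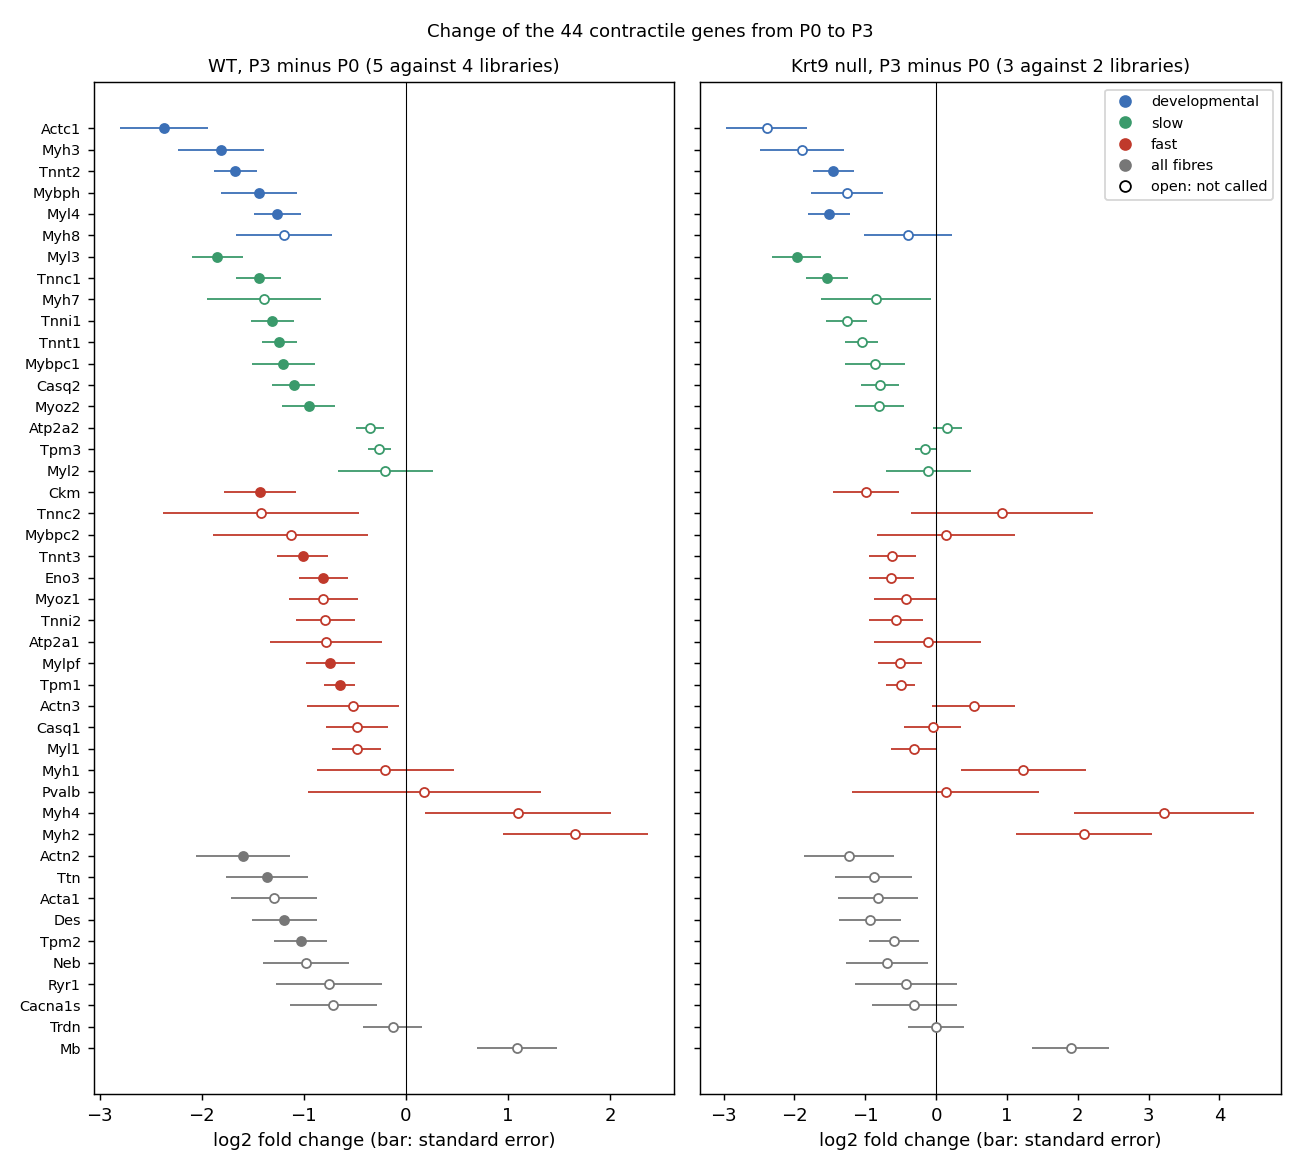
Fitted log2 fold change from P0 to P3 (x axis, bars are standard errors) of each of the 44 genes (y axis, grouped by role) in WT and Krt9 null paws, with filled points for genes called by edgeR. Most points lie left of 0 in both panels, with Myh2, Myh4, Mb and Pvalb to the right in both.

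Of 31 other sarcomere and triad genes, none of them a member, edgeR called 16 lower and 0 higher in WT paws, with a median log2 fold change of -1.03. Their mean log2(CPM + 0.5), used as a score of muscle RNA per library, was 5.27 ± 0.55 (SD, n = 4) in P0 WT, 4.22 ± 0.27 (n = 5) in P3 WT, 4.68 ± 0.19 (n = 2) in P0 Krt9 null and 3.96 ± 0.59 (n = 3) in P3 Krt9 null libraries. With this score as a covariate, edgeR called 3 members in WT paws, of which Tnnt2 was lower (log2 -1.6, SE 0.34, adjusted p = 0.0364) and Atp2a1 and Ryr1 were higher (1.23, SE 0.25, adjusted p = 0.0307, and 1.1, SE 0.27, adjusted p = 0.0478). In that fit 170 of all 21619 genes tested were called lower and 349 higher, and the median of the 44 was 0.03. The score itself differed between the days, so the score and the day cannot be fully told apart in that fit. Markers of satellite cells and myoblasts were called lower in 3 of 6 cases, summing to 87.7 to 144.5 CPM in P0 WT and 20.1 to 49.7 CPM in P3 WT, led by the differentiation factor Myog (log2 -1.97, SE 0.32, edgeR adjusted p = 0.00261). Markers of other cells moved over the same days. Fat markers were called higher in 3 of 4 cases (median 4.16), tendon markers in 2 of 3, red cell markers in 1 of 5, Schwann cell markers in 1 of 3 and bone markers in 1 of 5. The fat markers Plin1 and Cidec reached at most 0.602 and 0.338 CPM in P0 WT, so the size of the fat median rests on levels near 0. Keratinocyte markers were called lower in 1 of 6 cases and endothelial markers in 1 of 4, while 0 of 5 cartilage markers were called by edgeR (0 at an unadjusted p under 0.05). The part of these cell types in the result was not tested.

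**Figure D3:**
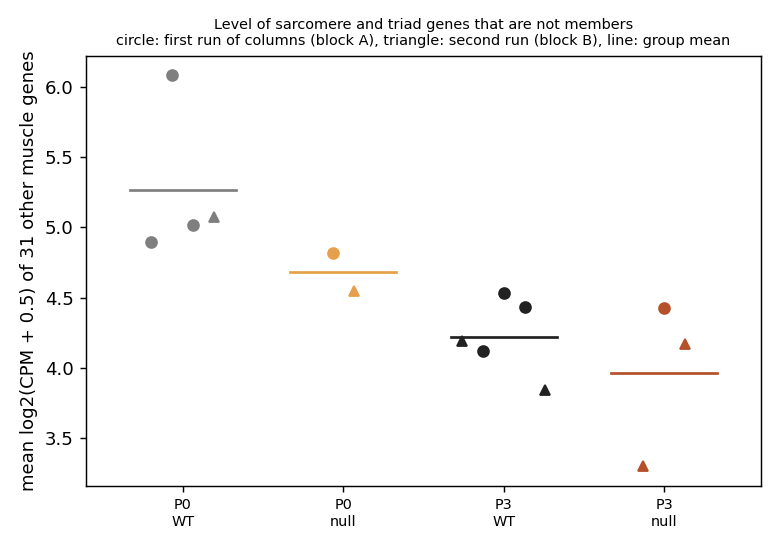
Mean log2(CPM + 0.5) of 31 sarcomere and triad genes that are not members (y axis) in each library by group (x axis). WT replicate 2 of P0 stands alone at 6.08, and the P3 WT libraries lie between 3.84 and 4.53, below every P0 library.

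Each member was also set against that score, as its mean log2(CPM + 0.5) minus the score, and the P3 and P0 WT libraries were compared. The difference was below 0 for all 6 developmental isoforms (median -0.56), from Actc1 at -1.54, Myh3 at -0.92 and Tnnt2 at -0.66 to Myl4 at -0.31 and Myh8 at -0.13. Among fast members, Myh2 stood at 2.78, Myh1 at 0.88, Casq1 at 0.57, Myl1 at 0.55, Actn3 at 0.51 and Tnnt3 at 0.01. Of the 17, 16 lay above 0 (median 0.38) and 1, Ckm at -0.34, lay within the range of the developmental isoforms. The 16 include Tnnc2, Myh4, Mybpc2 and Pvalb, which lie so near the pseudocount that subtracting a lower score moves them upward. Slow members (median -0.16) and genes of all fibres (median 0.02) lay on both sides of 0, from Myl3 at -0.69 to Myl2 at 0.85 and from Actn2 at -0.6 to Mb at 1.95. In Krt9 null paws the same difference was -1.65 for Actc1, -1.18 for Myh3 and 0.39 for Myh8, and it was 2.65 for Myh2, 1.87 for Myh1 and -0.16 for Ckm. No test was made of these values, and groups of WT libraries overlapped for most members.

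A ratio of 2 isoforms within a library does not rest on the scaling between libraries. Each of 22 ratios was compared by an exact two-sided permutation test of log2 ratios of CPM + 0.5, adjusted over the 22. In WT paws 7 differed between the days at the smallest p that 5 against 4 libraries allow (0.0159, adjusted p = 0.0499, exact permutation test). In none of the 7 did the groups overlap. The adjusted p depends on how many ratios reach that smallest p, and with 1 fewer of the 7 none would be past the threshold. Among the 7, Tnnc1 to Tnnc2 and Myh8 to Myh4 rest on genes with low counts. With a pseudocount of 0.1, 0 ratios were past the threshold. Without any 1 of the 9 libraries 0 were past it too, but fewer libraries raise the smallest p allowed. That count therefore does not show whether the ratios depend on single libraries. The directions below held within block A (3 against 3 libraries) and block B (2 against 1).

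Among heavy chains, the log2 ratio of Myh8 to Myh2 stood at 6.8, 6.17, 6.42 and 6.04 in P0 WT and at 2.72, 2.92, 4.26, 3.86 and 3.46 in P3 WT libraries. Its mean was lower by 7.53-fold on P3, with differences of -2.78 and -2.95 in blocks A and B. The ratio of Myh2 to Myh1, the 2 fast chains whose windows are printed above, stood at -1.54, -1.21, -1.08 and -1.41 on P0 and at 0.57, 0.31, 0.45, 0.79 and 0.85 on P3. The sign turned in every library, so that Myh2 had fewer counts than Myh1 on P0 and more on P3 (3.74-fold, or 1.79 and 2.12 in blocks A and B on the log2 scale). Myh8 to Myh4 differed by -1.87, with Myh4 at 0.418 to 3.05 CPM on P0, where the pseudocount weighs on the ratio. Myh3 to Myh8 differed by -0.79 (p = 0.0635, adjusted p = 0.107, exact permutation test), and the 1 P0 library inside the P3 range was WT replicate 2, at -1.31.

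Among thin filament genes, Actc1 to Acta1 stood at -1.39, -1.85, -1.32 and -0.98 on P0 and at -3.29, -3.33, -2.15, -2.47 and -2.24 on P3. Per kilobase, Actc1 made up 27.5 ± 4.88% of striated actin RNA in P0 WT and 13.6 ± 4.4% in P3 WT libraries, and 30.9 ± 7.83% and 13.2 ± 5.14% in Krt9 null libraries. The difference of the log2 ratio was -1.31 in all and -1.13 and -1.78 in blocks A and B. Troponin T and I pairs differed less: Tnnt1 to Tnnt3 by -0.25 (adjusted p = 0.402), Tnnt2 to Tnnt3 by -0.67 (adjusted p = 0.163) and Tnni1 to Tnni2 by -0.57 (adjusted p = 0.252), each by exact permutation test and with overlap. The ratio of Tnnc1 to Tnnc2 was past the threshold but cannot be read as an isoform ratio, because Tnnc2, the fast troponin C, stood at only 0.0 to 0.79 CPM in the 14 libraries. In the annotation its exons overlap those of Ube2c on the other strand, which stood at 31.7 to 56.4 CPM, and the part of that overlap in the low count was not tested.

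Of the remaining ratios past the threshold, Myl3 to Myl1 stood at -5.16, -5.68, -5.46 and -6.07 on P0 and at -6.98, -6.88, -7.06, -6.29 and -6.92 on P3, a difference of -1.23 (-1.31 and -0.88 in blocks A and B). Casq2 to Casq1, the cardiac and slow against the fast calcium store protein, stood at 1.58, 0.91, 1.27 and 1.29 on P0 and at 0.42, 0.17, 0.71, 0.74 and 0.89 on P3, a difference of -0.67 (-0.71 and -0.63). In both pairs the slow or cardiac isoform stood lower against the fast one on P3 than on P0. Actn2 to Actn3, the second of which is made in fast fibres, differed by -1.11 with an overlap of 1 library (adjusted p = 0.0873, exact permutation test). Not every slow to fast pair lay that way: Atp2a2 to Atp2a1 differed by 0.42 (adjusted p = 0.449) and Myl2 to Mylpf by 0.6 (adjusted p = 0.107) toward the slow isoform, and Myoz2 to Myoz1 by -0.15 (adjusted p = 0.349), each by exact permutation test and with overlap.

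**Figure D4:**
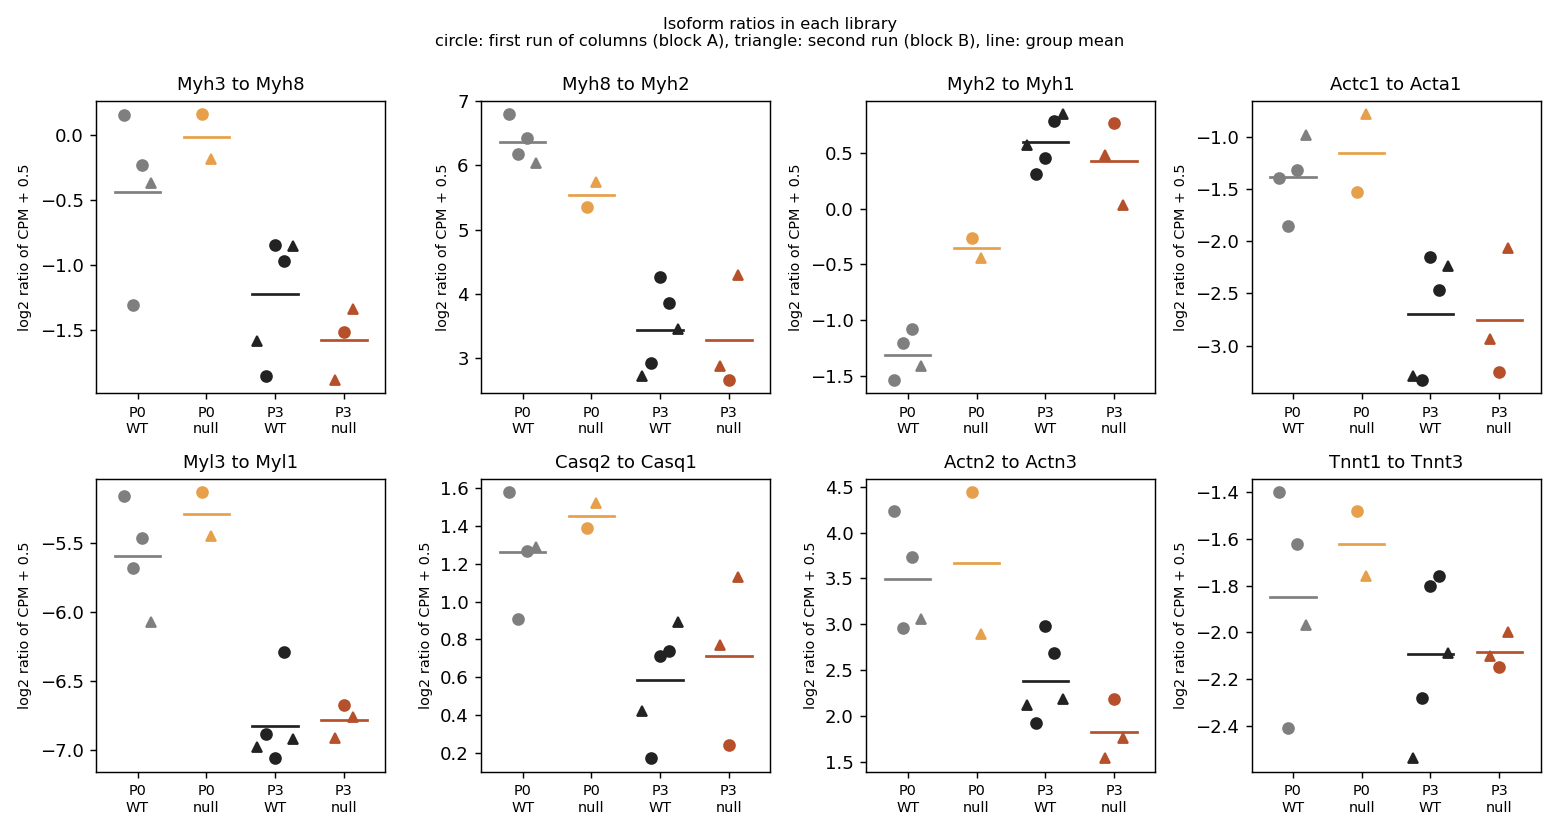
Log2 ratio of CPM + 0.5 (y axis) for 8 isoform pairs in each library by group (x axis), with circles for block A, triangles for block B and lines at group means. Myh8 to Myh2, Myh2 to Myh1, Actc1 to Acta1, Myl3 to Myl1 and Casq2 to Casq1 do not overlap between P0 WT and P3 WT, and the 2 P0 Krt9 null libraries stand between those groups for Myh2 to Myh1.

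In Krt9 null paws the same comparison of days rested on 3 against 2 libraries. edgeR called 4 members lower, where 0.43% of all genes were: the light chains Myl3 (log2 -1.97, SE 0.34, adjusted p = 0.0239) and Myl4 (-1.51, SE 0.3, adjusted p = 0.0398) and the troponins Tnnc1 (-1.54, SE 0.29, adjusted p = 0.0325) and Tnnt2 (-1.45, SE 0.29, adjusted p = 0.0363). All 4 were also called lower in WT paws. It called 0 higher (0.338% of all genes), with Mb and Myh4 at an unadjusted p under 0.05, and DESeq2 called Mb. With litter as a replicate block in limma voom, 2 members (Myl3 and Tnnc1) were called. edgeR called 0 without the sex term (41 of all genes) and 0 in a fit of only the groups compared (1 of all genes). Without the filter on low counts it called 21 members lower and 4 higher, where 580 and 1112 of 36822 genes were. The count of members was 0 without replicate 1 of P3 Krt9 null, where 2 of 21237 genes were called. It was 7 without WT replicate 3 of P3 (205 of 21758 genes). It was 2 without WT replicate 1 of P0 (81 of 21201 genes) or WT replicate 4 of P3 (83 of 21764 genes). Leaving out a P0 Krt9 null library leaves 1 in that group, so no count is given for those fits. With each library left out in turn, the median of the members ran from -0.84 to -0.29.

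In CPM, 15 members had every P3 Krt9 null library below both P0 ones (13.8% of all genes), and 4 had every one above (11.8%), namely Myh1, Myh2, Myh4 and Mb. Myh2 stood at 18.0 and 9.9 CPM on P0 and at 39.7, 123.4 and 29.2 CPM on P3. Mb stood at 1.89 and 2.02 CPM on P0 and at 8.12, 7.07 and 6.67 CPM on P3. Neither gene was called by edgeR, and members with every P3 library above both P0 ones were no more frequent than such genes among all tested. Actc1 stood at 426.9 and 490.7 CPM on P0 and at 42.8, 103.4 and 154 CPM on P3 (log2 -2.39, SE 0.57, edgeR adjusted p = 0.0872). Of the markers of other cells, edgeR called 1 of 6 satellite cell and myoblast markers (median -1.47) and 1 of 4 endothelial markers (median -0.79) lower. Fat markers (median 2.17), red cell markers (median 1.56) and keratinocyte markers (median 0.72) had 3 of 4, 1 of 5 and 3 of 6 at an unadjusted p under 0.05 and 0 called by edgeR, and their part in the result was not tested.

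The 2 genotypes, whose libraries differ but which come from 1 fit, had fitted values of the same sign for 38 of 44 members, 34 of them lower and 4 higher on P3. Across the 44 genes, which are not independent replicates, Pearson's r of the values was 0.88 and Spearman's rho 0.86. The median was -0.57 in Krt9 null and -0.99 in WT paws. The difference between these day effects, the interaction of genotype and day, was called for 0 members and for 0% of all genes by edgeR. Of the members, 0 had an unadjusted p under 0.05 and 0 were called by DESeq2 or limma voom. Without the filter on low counts edgeR called 1 (Myh1, higher), where 571 of 36822 genes were called higher. The 4 members with the smallest p for the interaction were Atp2a2 (log2 0.52, SE 0.24), Tnnc2 (2.35, SE 1.64), Myh4 (2.11, SE 1.51) and Actn3 (1.05, SE 0.76), the first with an adjusted p of 0.658 by edgeR. Its median over the members was 0.32, and 0.04 without WT replicate 2 of P0 or without replicate 2 of P0 Krt9 null.

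**Figure D5:**
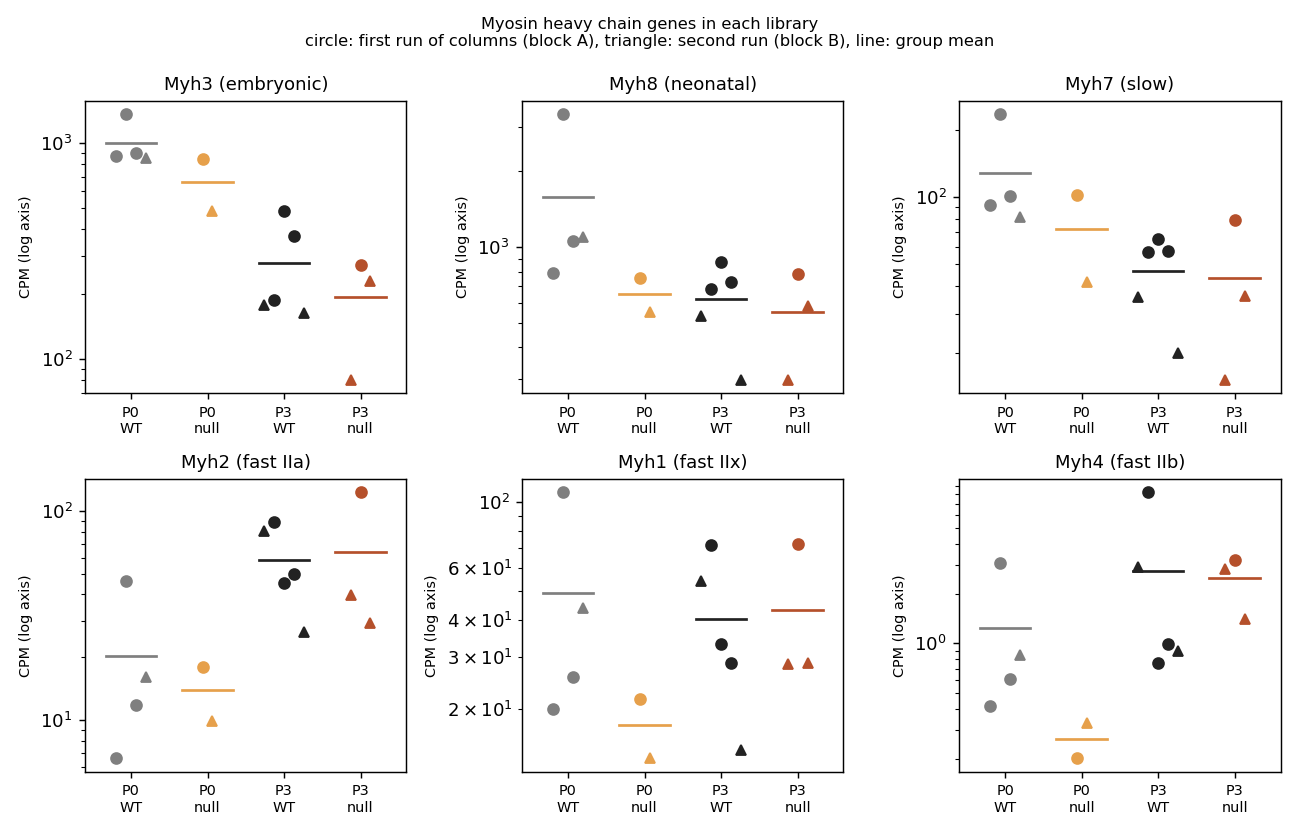
CPM on a log axis (y) of the 6 heavy chain genes in each library by group (x axis), with circles for block A, triangles for block B and lines at group means. Within each genotype Myh3 is lower in every P3 than in every P0 library, and Myh2 is at least 26.6 CPM in every P3 library.

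On P0 all 44 members had fitted values below 0 in Krt9 null against WT paws, but edgeR called 0 of them (0.00463% of all genes were called). Of the 44, 1 had an unadjusted p under 0.05, and DESeq2 and limma voom called 0. Without the filter on low counts edgeR called 14 members lower and 0 higher, where 139 and 43 of 36822 genes were. Those 14 were Acta1, Actn2, Actn3, Atp2a1, Casq1, Ckm, Mybpc2, Myh1, Myh4, Myh7, Myh8, Myoz1, Ryr1 and Ttn. The median log2 fold change was -0.62, beside -0.004 over all genes, and it was -0.31 without WT replicate 2 and -0.38 without replicate 2 of P0 Krt9 null. In CPM, 11 members had both Krt9 null libraries below all 4 WT libraries (4.82% of all genes) and 0 had both above (6.47%). Those 11 were Myh3, Myh4, Myh8, Tnnt1, Acta1, Actc1, Tpm1, Tpm2, Des, Ttn and Mb. Tropomyosin Tpm1 had the smallest unadjusted p, with 526.8, 975.7, 560.2 and 603.4 CPM in WT and 453.9 and 489.1 CPM in Krt9 null libraries (log2 -0.48, SE 0.19, edgeR adjusted p = 0.831). Actn3 (-1.25, SE 0.58), Casq1 (-0.84, SE 0.39) and Casq2 (-0.56, SE 0.27) followed with the same adjusted p.

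The 31 other sarcomere and triad genes were also all below 0 on P0 (median -0.62, 0 called by edgeR, 4 at an unadjusted p under 0.05), and with their score as a covariate the median of the members was -0.04. Keratinocyte markers (median -0.69) and bone markers (median -0.84) also had values below 0 there, with 0 called by edgeR and 4 of 6 and 1 of 5 at an unadjusted p under 0.05, and their part in the result was not tested. The medians of the members were -0.57 within block A (1 against 3 libraries) and -0.42 within block B (1 against 1). Myh2 to Myh1 did not overlap between the genotypes: its log2 value ran from -1.54 to -1.08 over the 4 WT libraries, and both Krt9 null libraries lay higher (-0.26 and -0.44). The difference was 0.96 (1.02 and 0.97 in blocks A and B), at the smallest p that 2 against 4 libraries allow (p = 0.133, adjusted p = 0.863, exact permutation test), so the design cannot reach 0.05. Myh8 to Myh2 also did not overlap there (difference -0.81, or -1.11 and -0.3 within blocks), and the other 20 ratios did. In the exact permutation test, random group labels leave a ratio without overlap with a probability of 0.133. Some of the 22 ratios are therefore expected not to overlap.

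On P3 the genotypes overlapped in every member. edgeR called 0 of 44, where 0.00463% of all genes were called, with 0 at an unadjusted p under 0.05 and 0 called by DESeq2 or limma voom. Without the filter on low counts edgeR called 3 lower (Actc1, Myh3 and Myl4) and 0 higher, where 55 and 576 of 36822 genes were. In CPM 0 members had all Krt9 null libraries below all WT libraries (1.27% of all genes) and 0 above (1.3%). The median log2 fold change was -0.31 with 41 of 44 values below 0, and it was -0.08 without replicate 1 of P3 Krt9 null, the library with the lowest muscle score (3.3), and -0.51 without WT replicate 5. The smallest unadjusted p belonged to Myl4, at 31.1, 29.9 and 55.6 CPM in Krt9 null and at 38.7, 26.5, 67.6, 64.5 and 58.4 CPM in WT libraries (log2 -0.52, SE 0.26, edgeR adjusted p = 0.756). Tpm1 (-0.32, SE 0.16), Trdn (-0.48, SE 0.33) and Myl1 (-0.38, SE 0.27) came next. The 31 other sarcomere and triad genes all had values below 0 (median -0.37), as did the 5 bone markers (median -0.74), and the 6 keratinocyte markers all had values above 0 (median 0.61, 4 at an unadjusted p under 0.05). edgeR called 0 of each list, and their part in the result was not tested.

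Isoform ratios on P3 also overlapped between the genotypes. None of the 22 was past the threshold, and the smallest p was 0.107 (adjusted p = 0.943, exact permutation test), where 3 against 5 libraries allow 0.0357. It belonged to Actn2 to Actn3, at 1.54, 2.19 and 1.76 in Krt9 null and 2.12, 1.93, 2.98, 2.69 and 2.19 in WT libraries (difference -0.56, or -0.35 and -0.51 within blocks). Myh2 to Myh1, which did not overlap on P0 but was not past the threshold there, differed by -0.17 on P3 (0.25 and -0.46 within blocks). Within blocks, 16 of 44 members kept the same sign in this comparison, with medians of 0.01 and -0.18, against 41 of 44 for the days in WT paws (medians -0.91 and -0.94).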

How the data were processed

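The authors deposited raw read counts per gene for 14 ribosomal RNA-depleted libraries. Per the submitters' processing notes, the tools were STAR (2.7.10a), featureCounts, limma and edgeR, and the build was GRCm39. No source used here gives filters or whether strand was used, so reads of overlapping antisense genes cannot be told apart. GENCODE gene models of another build (GRCm38) served for names (52073 of 56691 IDs, with 0.623% of counts left unnamed) and lengths.

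Low genes were removed by filterByExpr, libraries scaled by TMM, and the model was that of edgeR 4.0.16 in R 4.3.3 (quasi-likelihood, robust, 4 groups and labelled sex over 14 libraries, 9 residual degrees of freedom), and called at a Benjamini-Hochberg adjusted p under 0.05 over 21619 genes. The fit was tested on simulated counts. CPM are after TMM, and ratios and scores use CPM + 0.5. The alternatives were DESeq2 1.42.0 (test or size factors), limma 3.58.1 voom, no filter, no sex term, the column block, the muscle score, only the groups compared, a pseudocount of 0.1, each library left out, and litter as a replicate block. Libraries of the same litter number had a consensus correlation of 0.555 within a day and -0.054 across days. Those that share a number within a day all lie in block A, and block was not a term there. Litter and block therefore cannot be told apart in the value of 0.555. Ratios, tables and figures used SciPy 1.17.1, pandas 2.3.3, NumPy 2.4.6 and matplotlib 3.10.9 under Python 3.11.15.

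By the rule for named genes, fold changes and errors are given for members called or, with fewer than 4 called, the 4 with the smallest p, and isoform pairs per library. Values of further members, the ratio of Col1a1 to Col1a2 and the combined block and score terms were chosen after values were seen. The members and all lists were chosen with earlier results of these data known.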

Additional observations from a re-analysis of the deposited data

Results flagged for a closer look

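Of 134 groups of 4 or 5 libraries checked for a library far from the rest, 14 were marked, and chance marks about 1 in 20. WT replicate 2 of P0 accounts for 8 of the 14, always above the other 3 libraries. Its log2(CPM + 0.5) was 10.42 for Myh3, 4.71 for Myl3, 11.97 for Acta1, 9.78 for Tpm2, 4.62 for Mybph, 8.9 for Des and 5.5 for Cacna1s, and its muscle score was 6.08.

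The other 6 were in P3 WT libraries. Replicate 3 stood above the others for Tnnc2 (-0.08, a level near 0 CPM), replicate 1 above for Pvalb (3.9), and replicate 4 above for the log2 ratio of Myl3 to Myl1 (-6.29). Replicate 5 stood below the others for Atp2a2 (7.77), and replicate 2 below for Casq2 (5.88) and Myoz2 (3.99).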

How the results depend on the processing

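Medians and calls kept their direction under other scaling, DESeq2, limma voom, no sex term and the column block, with 20 or 21 of the 21 members called lower in WT paws called again. The counts of members called moved as follows, and the cause was not tested. Without a filter on low counts they were 36 (WT days), 25 (Krt9 null days), 14 (genotype on P0), 3 (genotype on P3) and 1 (interaction). Over all 36822 genes then tested the calls were 4203, 1692, 182, 631 and 617. With the muscle score as a covariate, 3 and 0 members were called for the days in WT and Krt9 null, where 519 and 3 of all genes were. The medians of the members were 0.03 and 0.15, and -0.04 for genotype on P0. With the column block and the score together, chosen after seeing the data, 0 and 0 members were called, where 12 and 1 of all genes were. The medians were then 0.17, 0.2 and 0.0. For Krt9 null days the count of members was 9 by DESeq2, 0 without the sex term, 0 with only the groups compared, and 2 with litter within a day as a replicate block. Over all genes those fits called 1094, 41, 1 and 129. The replicate block changed no other count by over 1.5 times. Leaving out a library gave 13 to 22 members for WT days (13 without WT replicate 4 or 5 of P3), 0 to 7 for Krt9 null days and 0 for the other 3 comparisons. Over all genes, fits that kept both P0 Krt9 null libraries called 1629 to 4332 for WT days and 2 to 645 for Krt9 null days. For genotype on P0, genotype on P3 and the interaction they called 1 to 3, 1 to 200 and 0 to 47. Ratios past the threshold for WT days were 0 with a pseudocount of 0.1. They were also 0 without any 1 library, where the smallest p allowed is higher, so that count does not show a dependence on single libraries.

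Called members turned sign in WT paws with the score as covariate (Des 0.08, Ttn 0.02, Mybpc1 0.0, Actn2 0.05) and with block and score (Myoz2 0.19, Ckm 0.04, Mylpf 0.15, Tnnt3 0.15, Mybpc1 0.19, Eno3 0.3). Without 1 library, Mybpc1 to Mybpc2 ran from -0.54 to 0.02 for WT days. For genotype on P3, uncalled ratios ran from -0.1 to 0.1 (Tnnt1 to Tnnt3), -0.67 to 0.15 (Myh8 to Myh2), -0.22 to 0.38 (Myh4 to Myh1), -0.01 to 0.18 (Myl3 to Myl1), -0.18 to 0.2 (Tnnt2 to Tnnt3), -0.28 to 0.1 (Tnni1 to Tnni2), -0.4 to 0.2 (Actc1 to Acta1), -0.33 to 0.1 (Mybpc1 to Mybpc2), -0.86 to 0.06 (Myh8 to Myh4), -0.37 to 0.1 (Myh7 to Myh8), -0.1 to 0.81 (Atp2a2 to Atp2a1), -0.34 to 0.03 (Myh2 to Myh1) and -0.08 to 0.36 (Casq2 to Casq1). Counting depth limits Tnnc2, Myh4, Pvalb and Mybpc2, the least abundant members.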
